A study of Mus musculus with 24 samples.

Results

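Lymphocytes that gather in an inflamed organ can become organised into tertiary lymphoid tissue, and 8 genes that direct or mark that organisation are described here in the islets of NOD mice. They are the chemokine and receptor pairs Ccl19 with Ccr7 and Cxcl13 with Cxcr5, the lymphotoxin genes Ltb and Lta, and the addressins Glycam1 and Madcam1. They were chosen by name, as every noncontrol probe annotated to 1 of these 8 genes. That gave 9 of 41174 probes, 2 of them for Ccl19, and all 8 genes were among the 18071 genes tested.

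Islets came from the collagenase-digested pancreas of female NOD/LtJ (NOD) mice, an inbred strain in which autoimmune diabetes develops spontaneously, aged 10 days or 4, 12 or 20 weeks. Islet RNA of 6 single mice per age was labelled with Cy5, and each array set 1 mouse against Cy3-labelled islet RNA pooled from 6 female NOD.B10Sn-H2b/J (NOD.B10) mice of the same age, which carry the H2b haplotype of the major histocompatibility complex on the NOD background. No mouse had received a treatment according to the labels. The labels were read as 1 pool per age, so each age has 1 control sample and a test of a ratio against 0 leaves out the spread among control mice. The dyes were never swapped over the 24 arrays: a probe's dye bias remains in the ratio at an age, and a constant bias cancels between ages.

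In lymph nodes and spleen, stromal cells secrete CCL19 and CXCL13. CCL19 draws T cells and mature dendritic cells through the receptor CCR7, and CXCL13 draws B cells and follicular helper T cells through CXCR5. Lymphocytes and lymphoid tissue inducer cells carry lymphotoxin, made of the products of Lta and Ltb, and its receptor on stromal cells drives alternative NF-kappaB signalling, which maintains the chemokines and the specialised high endothelial venules. On these venules GlyCAM-1 carries sugar ligands for L-selectin, and MAdCAM-1 binds the integrin alpha4beta7. GlyCAM-1 is also a secreted protein of the lactating mammary gland.

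Because NF-kappaB signalling is tied to some of these genes in lymphoid tissue, the 250 bases before the transcription start are shown for 4 genes. These are the genes whose values the account turns on most (RefSeq, GRCm38.p6, read 5′ to 3′ along the gene's strand). Such windows were at hand for 6 of the 8 genes, all but Ccr7 and Cxcr5. Capitals mark matches on either strand to a general kappaB form (GGG, any 5 bases, CC) or to a form linked to RelB (any base, GGAGA, any base, TT, any base).
Ccl19, chr4:42756366-42756615, minus strand: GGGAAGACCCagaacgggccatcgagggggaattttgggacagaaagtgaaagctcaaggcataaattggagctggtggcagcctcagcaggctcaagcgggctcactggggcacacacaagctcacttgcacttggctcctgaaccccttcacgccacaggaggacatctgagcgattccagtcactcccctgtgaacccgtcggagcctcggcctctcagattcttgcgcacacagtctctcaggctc
Cxcl13, chr5:95956689-95956938, plus strand: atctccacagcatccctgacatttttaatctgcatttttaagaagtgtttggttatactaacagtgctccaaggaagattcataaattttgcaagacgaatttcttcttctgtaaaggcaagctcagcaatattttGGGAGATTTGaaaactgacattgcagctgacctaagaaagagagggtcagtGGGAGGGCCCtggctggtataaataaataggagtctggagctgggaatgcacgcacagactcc
Ltb, chr17:35194257-35194506, plus strand: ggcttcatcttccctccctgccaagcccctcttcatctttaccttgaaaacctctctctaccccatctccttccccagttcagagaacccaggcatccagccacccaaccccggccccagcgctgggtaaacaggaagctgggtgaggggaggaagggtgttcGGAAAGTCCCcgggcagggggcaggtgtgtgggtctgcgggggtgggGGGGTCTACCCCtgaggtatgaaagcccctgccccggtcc
Glycam1, chr15:103565082-103565331, minus strand: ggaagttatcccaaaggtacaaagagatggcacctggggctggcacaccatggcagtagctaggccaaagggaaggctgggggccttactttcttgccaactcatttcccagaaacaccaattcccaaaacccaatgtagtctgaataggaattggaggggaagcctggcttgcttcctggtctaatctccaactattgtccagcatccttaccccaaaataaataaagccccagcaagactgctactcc
The Cxcl13 window held the RelB form once, as GGGAGATTTG starting 114 bases before the start, and the general form starting 63 bases before it, without overlap between them. The RelB form stood in 1 of the 6 windows and in 3.98% of 32851 mouse windows of the same length. The general form stood in 5 of the 6 windows, all but that of Glycam1, and in 45.8% of all windows. Matches of the general form on opposite strands often overlap, as in the Ccl19 and Ltb windows. A match is a match of letters and does not show binding.

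Ratios are log2(NOD/pool) after within-array loess, so 0 means equal signal and 1 means 2-fold more in the NOD mouse. To be called, at an age or between ages, a gene needed a Benjamini-Hochberg adjusted p (limma, over all tested genes) under 0.05 together with a 2-fold change or more. The share of probes that cleared background ran from 42.3% to 64.6% for the NOD samples and from 39.3% to 60.4% for the pools, and the dimmest NOD samples were 20 week mouse 5 (42.3%) and mouse 6 (47.6%). Of all pairs of arrays 11 were correlated below -0.3 over genes, the lowest at -0.54. As the labels state the dyes, the direction was kept. The arrays lay on 6 slides, of which 2 held 2 ages, and each slide was a scan of its own. Of 8 beta cell genes, 5 were called higher and 0 lower at 10 days. At 4 weeks and at 12 weeks 3 were lower, and at 20 weeks all 8 were lower. Both channels are islet RNA, so these ratios cannot check the islet label. Acinar genes, which mark exocrine tissue carried along with islets, were higher for all 7 at 4 weeks, with a median of 1.45. At 10 days 2 of the 7 were higher, and at 12 and 20 weeks none was called.

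Ccl19 was the member with the highest ratio at 12 and at 20 weeks and the widest scatter among mice at 10 days. Its reported probe lies at chr4:42250432-42250491 (mm9, plus strand), and a second one at chr4:42250352-42250411. At 12 weeks the 6 mice read 4.5, 3.73, 3.73, 4.06, 3.84 and 3.85, a mean of 3.95 ± 0.30 (SD, n = 6) or 15.5-fold (limma adjusted p = 1.49e-06). At 20 weeks they read 4.60, 3.49, 3.42, 4.14, 3.25 and 4.33, a mean of 3.87 ± 0.55 (14.6-fold, limma adjusted p = 1.04e-06). Both ages lay above every younger mouse, and the ratio differed little between the 2 later ages. At 4 weeks the values were -0.78, -0.37, -1.49, -1.72, 0.55 and -0.30, with 1 of 6 mice above 0 and no call. At 10 days they were -0.78, -2.02, 2.11, -2.62, 2.79 and -2.20. That last group split: mice 3 and 5 were high and the other 4 were low, so the mean of -0.45 ± 2.34 describes no single mouse. Only 0.0111% of the genes tested had a larger SD at that age. The second probe gave the same picture, with means of -0.15 ± 2.07, -0.38 ± 0.66, 3.91 ± 0.21 and 3.79 ± 0.64 from the youngest to the oldest age. The mouse genome carries near-identical copies of Ccl19 that RefSeq lists as pseudogenes or predicted genes, and the probes cannot tell their transcripts apart. The files place both probes on the plus strand, whereas the RefSeq gene printed above lies on the minus strand of a newer build, and which copy that placement refers to was not tested.

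Ccr7, the receptor for CCL19, had its probe at chr11:99005513-99005538 (mm9, minus strand), an interval of 26 bases that covers part of the 60-base probe. The 12 week mice read 1.86, 1.40, 0.62, 1.70, 1.93 and 1.24 (mean 1.46 ± 0.49, 2.75-fold, limma adjusted p = 1.39e-05). The 20 week mice read 3.21, 3.09, 3.09, 2.46, 2.09 and 2.25 (mean 2.70 ± 0.49, 6.49-fold, limma adjusted p = 2.26e-09). The lowest 20 week mouse stood above the highest 12 week mouse, and every 12 week mouse stood above every 4 week mouse. Values at 10 days ran from -0.94 to 1.01 and at 4 weeks from -0.73 to 0.40, on both sides of 0, and neither age was called. From 12 to 20 weeks the Ccl19 ratio differed by -0.081 (SE 0.70) and was not called, while that of Ccr7 was 1.24 higher (SE 0.31). Within the slide that held both ages the Ccl19 difference was 0.20, and under median centring Ccl19 was called lower at 20 weeks (-1.87).

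Cxcl13, the B cell chemokine, was called in opposite directions at the youngest and the oldest age. Its probe lies at chr5:96389861-96389920 (mm9, plus strand). The 10 day mice read 0.28, -1.43, -1.07, -1.77, -0.59 and -1.91, a mean of -1.08 ± 0.82 (limma adjusted p = 0.011), with 5 of 6 mice below 0. This call was lost without mouse 4 (-0.95) or without mouse 6 (-0.92), both under the 2-fold floor, and under median centring (-0.51). At 4 weeks 5 mice lay between -0.20 and -0.015 and mouse 5 stood alone at 2.28. The probe was well above background on 1 of 6 arrays in each channel. The 12 week mice read 0.25, 0.10, -0.12, 0.76, 0.12 and -0.62 (mean 0.081 ± 0.45), which was not called. The 20 week mice read 3.28, 2.39, 2.56, 2.10, 0.0087 and 1.11 (mean 1.91 ± 1.17, 3.75-fold, limma adjusted p = 7.53e-05). Mouse 5 of that age showed no excess over its pool, and the other 5 were 1.11 or more above it.

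Cxcr5, the receptor for CXCL13, was called at 20 weeks alone of the 4 ages in the main fit. With the scanner's processed signals it was also called lower at 4 weeks (-1.84, limma adjusted p = 0.00146). It was then called higher from 4 to 12 weeks (2.38, limma adjusted p = 0.0031). Its probe lies at chr9:44320071-44320130 (mm9, minus strand). Values at 20 weeks were 2.29, 2.92, 3.18, 2.11, 1.46 and 1.06 (mean 2.17 ± 0.82, 4.5-fold, limma adjusted p = 2.34e-08), all above every mouse of 12 weeks. The 12 week mice read 0.58, 0.29, 0.10, 0.93, 0.62 and -0.058 (mean 0.41 ± 0.37, limma adjusted p = 0.126). At 10 days the range was -0.78 to 0.68 and at 4 weeks -0.39 to 0.33, with the NOD signal well above background on 1 of 6 arrays at 4 weeks. Both genes of the B cell pair had their first positive call at 20 weeks, whereas both genes of the CCL19 pair had theirs at 12 weeks. Under median centring in place of loess this difference in timing was lost, because Cxcl13 (1.05) and Cxcr5 (1.11) were also called at 12 weeks. The timing is that of ratios to the pool. In the NOD signal alone, Cxcl13 (2.67) and Cxcr5 (1.85) were called higher from 4 to 12 weeks, and neither was called from 12 to 20 weeks.

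**Figure D1:**
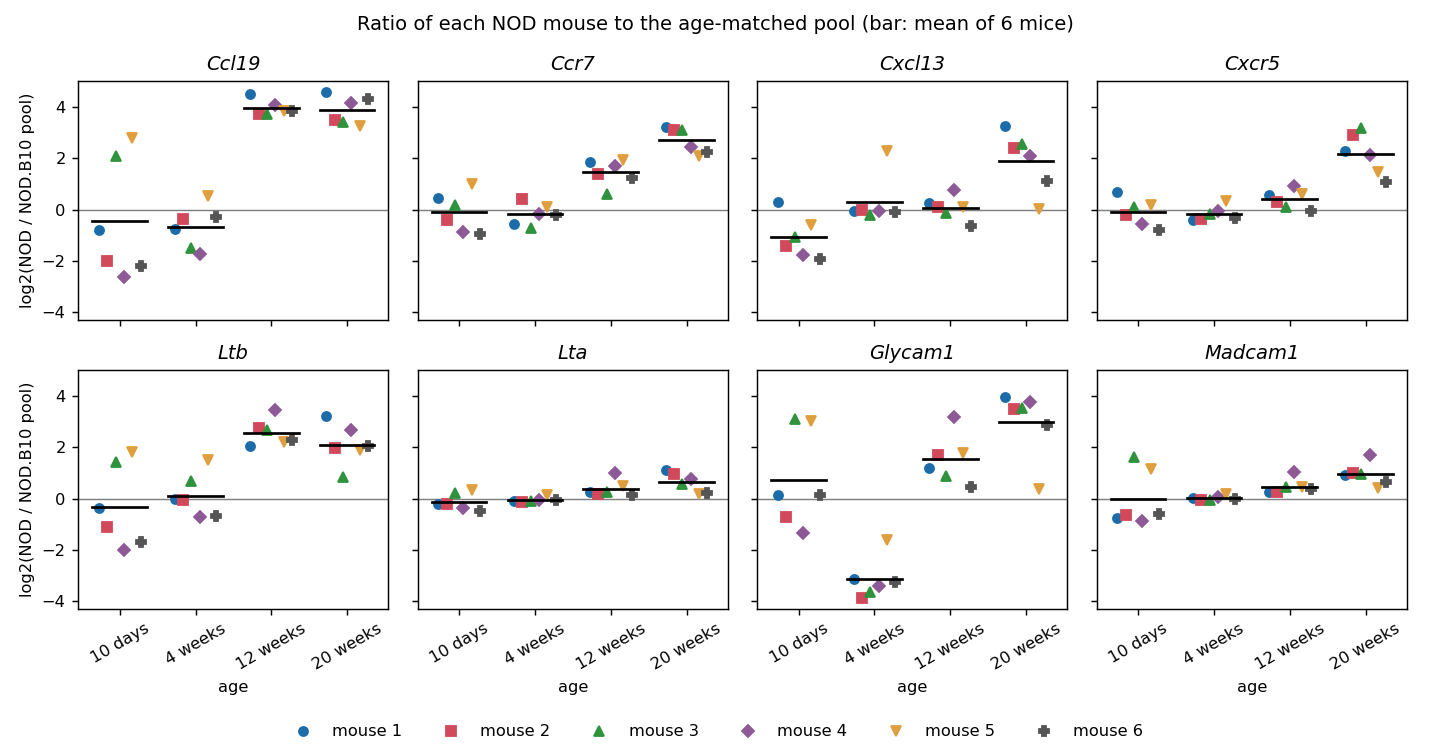
Log2 ratio of each NOD mouse to its age-matched NOD.B10 pool (y axis) at the 4 ages (x axis) for the 8 genes; a point is 1 mouse, different mice at each age, and a black bar is the mean of 6. Ccl19 and Ltb stood high from 12 weeks, Cxcl13 and Cxcr5 at 20 weeks, Glycam1 lay below 0 in all 6 mice at 4 weeks, and 10 day mice 3 and 5 stood apart for Ccl19, Ltb, Glycam1 and Madcam1.

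Ltb encodes the membrane-anchored subunit of the lymphotoxin heterotrimer, and Lta the subunit that is also secreted on its own. The Ltb probe lies at chr17:35333097-35333156 (mm9, plus strand). Its 12 week ratios were 2.06, 2.74, 2.68, 3.47, 2.21 and 2.28 (mean 2.57 ± 0.52, 5.94-fold, limma adjusted p = 2.22e-05). Its 20 week ratios were 3.21, 1.98, 0.84, 2.69, 1.89 and 2.04 (mean 2.11 ± 0.81, 4.31-fold, limma adjusted p = 0.000126). All 12 mice of these ages were above 0, and the 2 ages overlapped. From 12 to 20 weeks the Ltb difference was -0.46 (SE 0.56, not called), 0.36 within the slide that held both, and -2.05 under median centring, where it was called. At 10 days the mice read -0.39, -1.13, 1.44, -2.01, 1.82 and -1.70, again with mice 3 and 5 high, and an SD of 1.62 that 0.116% of tested genes exceeded. At 4 weeks the range was -0.74 to 1.5, with mouse 5 highest.

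Lta gave a dim signal and was called at no age after background correction with an offset. Its probe, printed at 10 spots per array, lies at chr17:35340275-35340334 (mm9, minus strand). On 19 of 24 arrays the probe cleared background in either channel, and on 8 in both. Mean ratios were -0.12 ± 0.33, -0.047 ± 0.09, 0.37 ± 0.32 and 0.63 ± 0.38 (SD, n = 6) from 10 days to 20 weeks. All 6 mice were above 0 at 12 weeks (0.13 to 0.98) and at 20 weeks (0.16 to 1.10). The adjusted p passed at both ages (limma, 0.016 and 0.000127), and the 2-fold floor was not met. The pool was not well above background on any array at 4 and 12 weeks. The 12 week mean of 1.30-fold may therefore understate the excess, and a dye bias may remain in it. With the scanner's own processed signals, which are not offset before the log, the means were 1.73 and 1.69 and both were called. The 10 day mean was then -1.10 and called lower (limma adjusted p = 0.026), as it was in the deposited values (-1.08). Ltb and Lta ratios should not be compared in size, because the offset compresses the ratios of dim probes.

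Glycam1, the L-selectin ligand, changed direction with age. Its probe lies at chr15:103393339-103393398 (mm9, minus strand). At 4 weeks all 6 mice were below 0, at -3.15, -3.88, -3.64, -3.42, -1.60 and -3.26, a mean of -3.16 ± 0.81 (8.93-fold lower, limma adjusted p = 2.71e-05). At 12 weeks all 6 were above 0, at 1.2, 1.70, 0.90, 3.17, 1.77 and 0.44 (mean 1.53 ± 0.94, 2.88-fold, limma adjusted p = 0.0205). That call was lost without mouse 4 (1.2, limma adjusted p = 0.0992) or without mouse 5 (1.48, limma adjusted p = 0.0527). At 20 weeks 5 mice read 3.97, 3.51, 3.54, 3.77 and 2.89, and mouse 5 read 0.36 (mean 3.01 ± 1.35, 8.03-fold, limma adjusted p = 3.55e-05). The 10 day mice read 0.13, -0.71, 3.1, -1.35, 3.01 and 0.14, in the same split as Ccl19, and were not called as a group, although under median centring the mean was 1.47 and called (limma adjusted p = 0.0403). An SD of 1.89 at 10 days was exceeded by 0.0498% of tested genes, and the 12 week SD of 0.94 by 0.0775%. Of 7 genes of the lactating mammary gland, 3 passed the filter on dim probes (Csn3, Krt14 and Wap), and none of these was called at any age. Their mean ratio per mouse lay between -0.18 and 0.24. These 3 were dim. At 10 days the NOD and pool arrays above background were 1 and 0 of 6 for Wap, 3 and 2 for Krt14, and 6 and 3 for Csn3. At 4 weeks they were 5 and 4, 5 and 5, and 6 and 6. The offset compresses dim ratios, and Csn1s1, Csn2, Csn1s2a and Lalba were not tested. A mammary source of Glycam1 RNA was therefore not tested by these genes.

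Madcam1, the ligand of alpha4beta7 integrin, stayed under the 2-fold floor at every age. Its probe is given at chr10:79127883-79128194 (mm9, plus strand), an interval of 312 bases that is longer than the 60-base probe. The 20 week mice read 0.92, 0.99, 0.98, 1.69, 0.42 and 0.64 (mean 0.94 ± 0.43, 1.92-fold, limma adjusted p = 0.00185). The 12 week mice read 0.24, 0.24, 0.44, 1.02, 0.47 and 0.38, all above 0. Their mean of 1.38-fold was not called (limma adjusted p = 0.124). As the pool was not well above background on any array, that mean may understate the excess, and a dye bias may remain in it. The 20 week mean passed the floor without mouse 5 (1.05) or mouse 6 (1.00) and under 5 other settings, up to 2.06 with the scanner's processed signals, so the call depends on that floor. At 10 days the mice read -0.75, -0.62, 1.61, -0.87, 1.14 and -0.58, with mice 3 and 5 high once more. At 4 weeks all values lay between -0.048 and 0.19.

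Counted together, 4 of the 8 genes were called higher and 0 lower at 12 weeks (Ccl19, Ccr7, Ltb and Glycam1), where 2.09% of all tested genes were called higher and 3.51% in either direction. At 20 weeks 6 were higher and 0 lower, all but Lta and Madcam1, against 3.87% of all tested genes called higher and 5.1% in either direction. Called lower were 1 gene at 10 days (Cxcl13) and 1 at 4 weeks (Glycam1), against 2.36% and 0.88% of all genes called lower and 3.98% and 2.79% in either direction. The median ratio of the 8 genes was 0.96 at 12 weeks and 2.14 at 20 weeks, beside medians of 0.03 and -0.0039 over all tested genes. With the moderated F test, which has no fold floor, all 8 differed among the 4 ages at an adjusted p under 0.05, as did 76% of all tested genes.

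From 4 to 12 weeks the ratio rose for 4 of the 8 genes, by 4.64 (SE 0.70) for Ccl19, 4.69 (SE 0.72) for Glycam1, 2.46 (SE 0.56) for Ltb and 1.65 (SE 0.31) for Ccr7. Limma adjusted p-values were 4.45e-05, 5.15e-05, 0.00172 and 0.000311, beside 6.05% of all tested genes called and 2.98% called higher. For 6 of the 8 genes, all but Cxcl13 and Cxcr5, every 12 week mouse lay above every 4 week mouse, as for 14.9% of all tested genes. No slide held both ages, so slide and age cannot be told apart in this step. With the scanner's processed signals 7 of the 8 rose, all but Cxcl13.

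From 12 to 20 weeks the ratio rose for 3 genes. These were Cxcl13 (1.83, SE 0.48, limma adjusted p = 0.00775), Cxcr5 (1.76, SE 0.29, limma adjusted p = 0.000201) and Ccr7 (1.24, SE 0.31, limma adjusted p = 0.00472), beside 2.41% of all tested genes called and 2.01% called higher. Slide 5 held 2 mice of each of these ages, and within it the differences were 3.09, 2.33 and 1.56, each in the same direction. With slide as a fixed block the adjusted p was 0.0604 for Cxcr5 and 0.0681 for Ccr7, and for Cxcl13 it was 0.0487. Every 20 week mouse lay above every 12 week mouse for Ccr7 and Cxcr5, as for 4.96% of all tested genes. The Ccr7 difference turned to -0.20 under median centring in place of loess, where the Cxcl13 (0.49) and Cxcr5 (0.78) calls were also lost and the median of all genes moved to -0.78. With the scanner's processed signals the Ccr7 difference was 1.14 and not called (limma adjusted p = 0.105). Glycam1 was 1.48 higher (SE 0.72, limma adjusted p = 0.133) and was not called. For Glycam1, 20 weeks minus 12 weeks, the difference was 2.01 without 20 week mouse 5 (limma adjusted p = 0.0286), and 2.63 within slide 5. Under median centring that Glycam1 difference was -0.10 (limma adjusted p = 0.925).

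From 10 days to 4 weeks the Glycam1 ratio fell by 3.88 (SE 0.72, limma adjusted p = 0.000125) and that of Cxcl13 rose by 1.40 (SE 0.49, limma adjusted p = 0.0197). The 4 week Cxcl13 signal was well above background on mouse 5's array alone, in both channels, so the size of its difference rests on signals near the floor. In this comparison 9.01% of all tested genes were called, 5.16% higher and 3.85% lower. Slide 2 held 2 mice of each age, and within it the Glycam1 difference was -5.09 and the Cxcl13 difference was 1.22. Without 4 week mouse 5 the Cxcl13 difference was 1.00 and its call was lost, as it was without 10 day mouse 6 (1.23), with slide as a fixed block (1.22) and under median centring (0.89). From 10 days to 20 weeks 6 of the 8 genes rose, the same 6 that were called at 20 weeks, beside 12.5% of all tested genes called and 7.74% called higher. Under median centring 2 of these calls were lost, those of Ltb (1.15, limma adjusted p = 0.108) and Glycam1 (1.03, limma adjusted p = 0.286). Those 6 also rose from 4 to 20 weeks, beside 4.81% called and 3.65% called higher. Of these, the Cxcl13 call was lost under median centring (1.16), with the scanner's processed signals (1.88, limma adjusted p = 0.0935), with the deposited values (1.88, limma adjusted p = 0.0913) and without 20 week mouse 1 (1.32, limma adjusted p = 0.0516). The Ltb call over that span was lost under median centring (1.68, limma adjusted p = 0.107). These spans share mice with the steps above and add no separate evidence.

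A ratio can move because the NOD signal moves or because the pool does, and the separated channels differed in this for several of the genes. Levels below are log2 intensities after normalization between arrays, and they are compared for a probe between ages, never between probes. From 4 to 12 weeks the NOD level rose by 5.40 for Ccl19 (SE 0.69, limma adjusted p = 5.02e-06), 4.57 for Glycam1, 3.87 for Ltb, 3.00 for Ccr7, 2.67 for Cxcl13 and 1.85 for Cxcr5. These 6 of 8 were called, beside 5.36% of all tested genes in the NOD channel and 4.3% called higher. The pool level of Cxcl13 differed by 2.91 in that interval, and its ratio was near 0 at 12 weeks. At 4 weeks Cxcl13 was well above background on 1 of 6 arrays in each channel, and Cxcr5 on 1 of 6 in the NOD channel, so the true sizes of these differences are not known and were not compared. Pool levels of Ltb (1.41), Ccr7 (1.35) and Cxcr5 (1.28) were also higher, those of Ccl19 (0.77) less so, and that of Glycam1 differed by -0.12.

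From 12 to 20 weeks limma called 0 of the 8 in the NOD channel, with loess and Aquantile or with quantile scaling, beside 0.354% of all tested genes (0.227% higher). Before adjustment the limma p was under 0.05 for 1 of the 8, Cxcr5. The 2 largest differences upward were Cxcr5 (1.01, SE 0.35, limma adjusted p = 0.0894) and Ccr7 (0.64, SE 0.39, limma adjusted p = 0.357). The pool levels of Cxcl13 and Glycam1 differed by -1.60 and -1.62 over the same span and their NOD levels by 0.22 and -0.15. On this scale most of the difference in these 2 ratios lay on the pool side. The pool levels of all 8 genes were lower, by -0.23 for Ccl19 at the least. Those of Lta and Madcam1 went from 6.71, above background on no array, to 6.24, above it on every array. The level scale thus differed between these ages, and its part in the differences was not tested. The 20 week pool was 1 sample, and the labels do not tell a change with age from a difference between 2 pools. In contrast, the low Glycam1 ratio at 4 weeks lay in the NOD channel. The NOD level was 10.81 ± 1.84 at 10 days, 6.69 ± 0.67 at 4 weeks and 11.26 ± 1.07 at 12 weeks (SD, n = 6), and the pool level was 10.09 ± 0.098, 9.85 ± 0.19 and 9.73 ± 0.13. In the same interval from 10 days to 4 weeks the NOD levels of Ccl19 (-2.74), Ltb (-2.01) and Madcam1 (-1.54) fell as well, beside 3.35% of all tested genes called in the NOD channel and 1.51% called lower. For these 3 the pool differed by about as much, -2.51, -2.45 and -1.58, and their ratios were not called. From 10 days to 20 weeks 4 of the 8 rose in the NOD channel (Ccl19, Ccr7, Cxcl13 and Cxcr5), beside 5.06% of all tested genes called and 3.38% called higher.

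**Figure D2:**
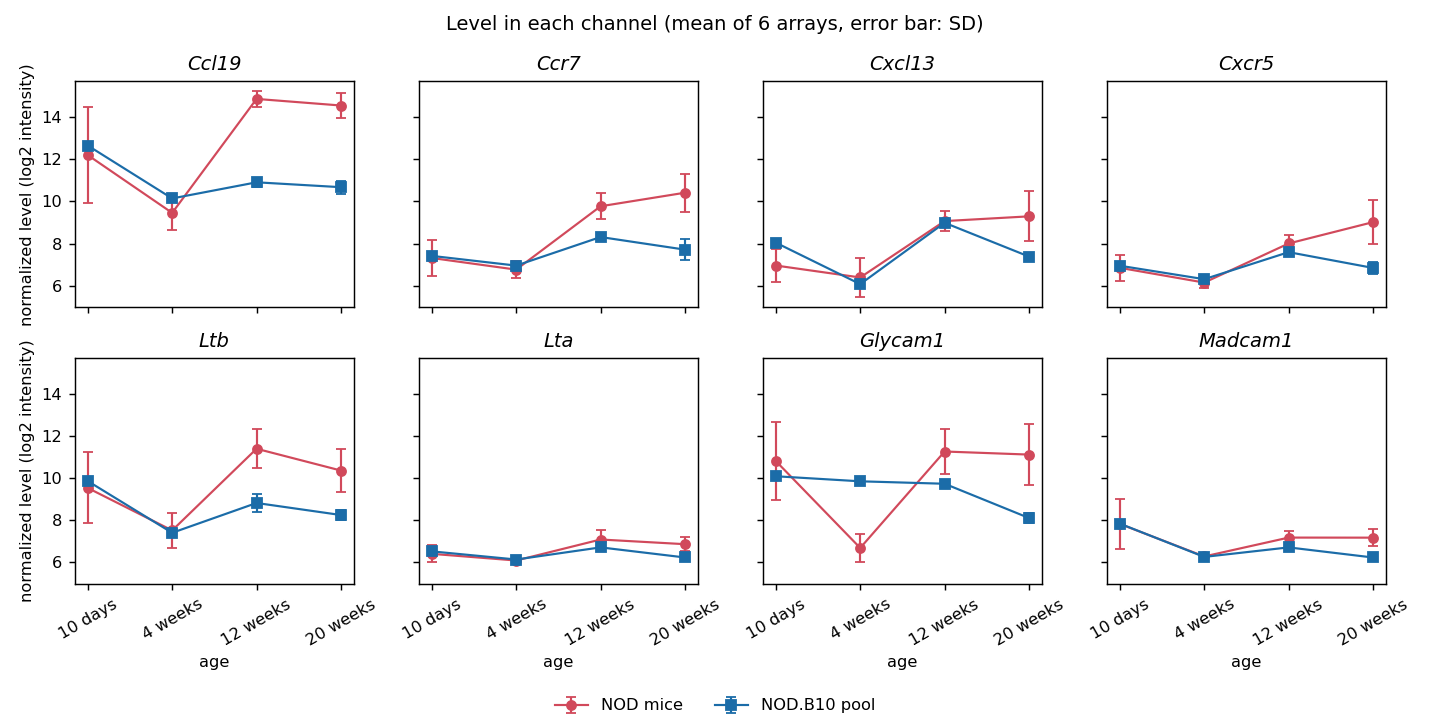
Normalized level (y axis, log2 intensity) of the NOD channel and the NOD.B10 pool channel at the 4 ages (x axis) for the 8 genes; points are means of 6 arrays and error bars are SDs, which for the pool show repeat measurements of 1 pool. The NOD level of Glycam1 was 6.69 at 4 weeks beside 9.85 in the pool, and at 20 weeks the pool levels of Cxcl13 (7.39) and Glycam1 (8.11) lay under their 12 week levels (8.99 and 9.73).

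At 10 days the NOD channel varied more among mice than repeat readings of the pool did. The pool channel, which measured the same pool on 6 arrays, had an SD of 0.089 for Ccl19 and 0.098 for Glycam1 at 10 days, against 2.27 and 1.84 in the NOD channel. The median SD over all tested genes at that age was 0.197 in the NOD channel and 0.0677 in the pool channel. Each NOD sample was prepared and measured once, so differences between mice and in the preparation of their islets cannot be told apart. At 10 days mice 3 and 5 were the 2 highest for 5 of the 8 genes (Ccl19, Ltb, Lta, Glycam1 and Madcam1), an order that 15.4% of all tested genes shared. Among genes outside the 8, chosen after their values were seen, Fut7 read 2.56 and 2.53 in these 2 mice and between -1.52 and -0.65 in the other 4. Fut7 makes the fucosylated sugars that selectins bind. Ccl21a, which encodes the other CCR7 ligand, read 1.14 and 1.66 there and between -2.09 and -0.84 elsewhere. Cxcl13 did not share the split, with -1.07 and -0.59 in mice 3 and 5, and neither did Cxcr5 (0.091 and 0.17).

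Values of other lists are given beside the 10 day split, which the T cell list followed, among others. The follicular dendritic and reticular stroma list read 0.28 and 0.26 in mice 3 and 5, and at most 0.0096 in the others. This list shares Enpp2 with the high endothelial venule list and Cr2 with the B cell list, so the lists are not separate. The high endothelial venule and homing list, which holds Fut7, read 0.24 and 0.34, and at most -0.017 in the others. The homeostatic chemokine and receptor list, which holds Ccl21a, read 0.11 and 0.18, and at most -0.17 in the others. The mean ratio of 12 T cell genes was 0.49 and 1.03 in mice 3 and 5 and between -0.54 and 0.11 in the others, and that of 11 B cell genes was -0.054 and 0.34 against -1.39 to -0.063, so mouse 1 nearly equalled mouse 3 for B cell genes. The dendritic cell and macrophage list did not follow the split, with 0.35 in mouse 1 and 0.15 in mouse 3, nor did the endothelial list, with -0.38 in mouse 1 and -0.43 in mouse 5. The mean of 8 beta cell genes was 1.12 and 1.75 in these 2 mice and spanned 0.39 to 1.87 in the others. Whether these mice had lymphoid tissue beside their islets was not tested. In bulk RNA, more cells of a type and more RNA per cell cannot be told apart.

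Single mice stood out at other ages too. At 4 weeks mouse 5 was the highest for 7 of the 8 genes, all but Ccr7, against 24.9% of all tested genes. Its B cell list mean was 1.13, while the other 5 mice lay between -0.33 and -0.25, and its T cell mean was 0.28 against 0.053 to 0.17. At 20 weeks mouse 5, the dimmest NOD sample, was the lowest for 6 of the 8 genes, all but Cxcr5 and Ltb, against 38.4% of all tested genes. Its B cell mean was 0.37 against 0.76 to 2.20 in the other mice, and its T cell mean 1.24 against 1.67 to 2.45. Its beta cell mean of -3.42 was the lowest of that age (others -1.66 to -0.68), and its acinar mean of 2.09 the highest (others -2.37 to 1.48). The part of tissue makeup in these ratios was not tested.

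**Figure D3:**
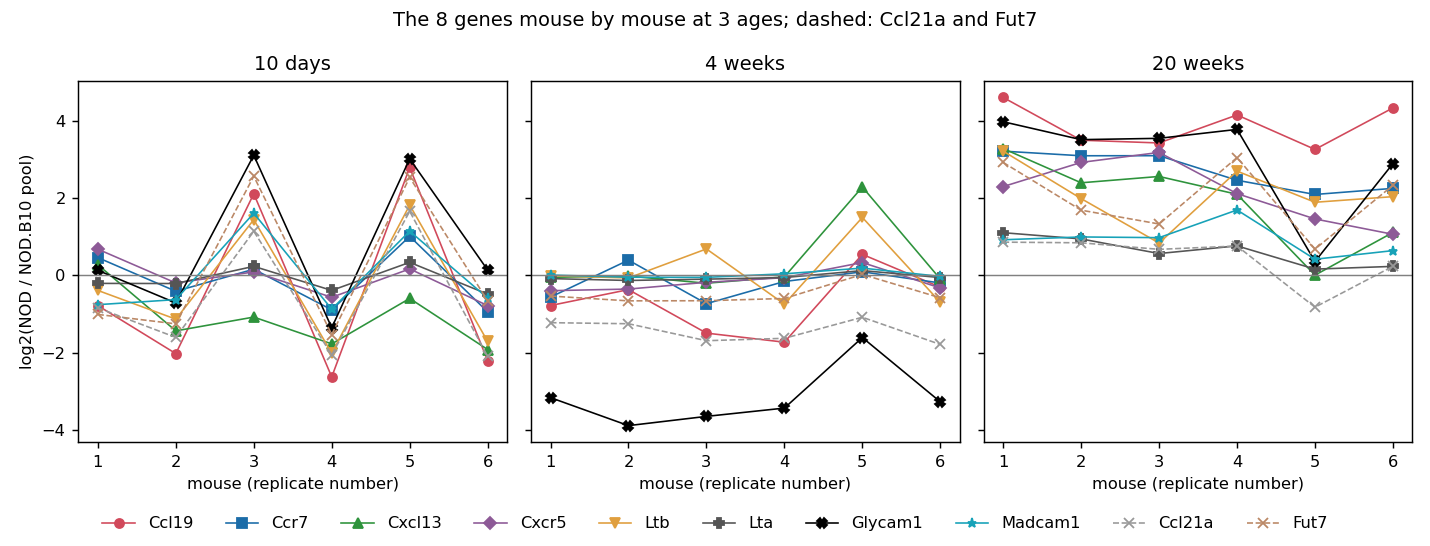
Log2 ratio to the pool (y axis) of each mouse (x axis, replicate number) at 10 days, 4 weeks and 20 weeks for the 8 genes (solid lines) and for Ccl21a and Fut7 (dashed lines); lines only join the values of a gene, and mice with the same number at different ages are different animals. At 10 days mice 3 and 5 peak together for 5 of the 8 genes, at 4 weeks mouse 5 is highest for 7, and at 20 weeks mouse 5 is lowest for 6.

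Over mice, the deviations of the 8 genes from their age means were positively correlated for all 28 pairs (24 mice, Pearson r from 0.25 to 0.84, median 0.66), and 21 pairs passed a two-sided permutation test within ages after adjustment over the 28. Over all pairs of the 18027 tested genes with no missing ratio, 52% were positive, the median r was 0.019 and 3.06% reached 0.66 or more. The 28 pairs share the same mice and arrays and were chosen with results known. Since several genes split in separate clusters at 10 days, the 18 mice of the other ages were also taken alone. There 26 pairs were positive, the median r was 0.51 and 10 pairs passed. Cxcl13 with Cxcr5 gave r = 0.78 and rho = 0.87 over 24 mice (permutation p = 9e-05 and 1e-05, the latter the smallest that 100000 permutations can give; adjusted 0.00084 and 0.00014). Without the 2 mice farthest from the Cxcl13 median r was 0.79, and over the 18 mice it was 0.72. Cxcl13 with Glycam1 gave r = 0.66 and rho = 0.67 over 24 mice (permutation p = 0.0019 and 0.00101, adjusted 0.00453 and 0.00314), 0.51 without the 2 farthest mice and 0.88 over the 18. Ccl19 with Ltb gave r = 0.83 and rho = 0.65 over 24 mice (permutation p = 0.00047 and 0.00478, adjusted 0.00203 and 0.0114), 0.71 without the 2 farthest mice and 0.49 over the 18 (permutation p = 0.0843), so that relation rests in part on the 10 day mice. Ccl19 with Ccr7 was 0.65 over 24 mice and 0.36 over 18 (permutation p = 0.00717 and 0.143).

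The genes whose deviations most resembled each called member, by Pearson r over the 24 mice among tested genes, were of different kinds. For Cxcl13 they were 2010309G21Rik (0.92), Scd1 (0.91) and the B cell surface gene Ms4a1 (0.91), and for Cxcr5 they were Gpr65 (0.92), the leukocyte tetraspanin Cd53 (0.91) and the inhibitory Fc receptor Fcgr2b (0.91). For Ccr7 they were the T cell costimulator Tnfrsf4 (0.89), the interleukin-2 receptor chain Il2rb (0.89) and Myo1g (0.89). The nearest to Glycam1 were Hcls1 (0.93), Kbtbd11 (0.92) and the dendritic cell growth factor Flt3l (0.92). The values for these 12 genes were 0.82 or above over the 18 mice without the 10 day group. All genes of this paragraph were picked for a high r over the 24 mice, which include those 18. Values over the 18 mice are therefore no separate check. The nearest to Ccl19 were Col26a1 (0.93), Serpina1d (0.92) and Chrdl1 (0.91), at 0.77, 0.76 and 0.69 over the 18 mice. For Ltb they were Chst14 (0.92), Lrg1 (0.91) and Zfp407 (0.90), at 0.86, 0.79 and 0.83.

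Other genes of the pathway are given as counts, to be read beside 3.51% of all tested genes called at 12 weeks (2.09% higher) and 5.1% at 20 weeks (3.87% higher). Of 8 measured homeostatic chemokines and receptors outside the set, 3 were called higher than the pool at 12 and at 20 weeks and 5 were not, at both ages. These are calls at an age, not between ages. They were Cxcr4, the CXCL12 receptor (1.18 ± 0.42 and 2.5 ± 0.67), Ccr6, the CCL20 receptor (1.24 ± 0.46 and 2.05 ± 0.63), and Gpr183, an oxysterol receptor that positions B cells (1.05 ± 0.32 and 1.98 ± 0.53). All 3 encode receptors. Ccl21a, whose product shares CCR7 with CCL19, was lower at 4 weeks (-1.44 ± 0.29, all 6 mice below -1) and was not called at 12 weeks (0.091 ± 0.87) or 20 weeks (0.43 ± 0.65). Cxcl12 was lower at 10 days (-1.03 ± 0.81) and was not called at the later ages. The list median was 0.53 at 12 weeks and 0.67 at 20 weeks.

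Of 17 genes of lymphotoxin and TNF family signalling, 1 was called higher at 12 weeks and 5 at 20 weeks, and 16 and 12 did not pass. The 12 week count is 1 gene, near the share of all tested genes. Tnfrsf13c, the BAFF receptor of B cells, was called higher at both (1.23 ± 0.55 and 2.27 ± 0.95). Called higher at 20 weeks were Il7r, the interleukin-7 receptor (2.14 ± 0.76), and Tnfrsf1b, the second TNF receptor (1.98 ± 0.53). So were Id2, a factor that lymphoid tissue inducer cells need (1.97 ± 0.37), and the BAFF gene Tnfsf13b (1.13 ± 0.54). The lymphotoxin receptor gene Ltbr was called lower at 10 days (-1.01 ± 0.17) and read 0.18 ± 0.52 at 20 weeks. Of the alternative NF-kappaB arm, the kinase gene Map3k14 (0.65 ± 0.38, limma adjusted p = 4.11e-05) and Nfkb2 (0.42 ± 0.42, limma adjusted p = 0.0345) passed the adjusted p at 20 weeks and missed only the 2-fold floor. Relb (0.044 ± 0.75, limma adjusted p = 0.911) did not pass. The list median was 0.084 at 12 weeks and 0.33 at 20 weeks.

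Of 19 genes of high endothelial venules and lymphocyte homing, 5 were called higher and 1 lower at 12 weeks, and 7 higher at 20 weeks. Those expressed by lymphocytes included Itgb7, the partner chain of the MAdCAM-1 receptor (2.94 ± 0.50 and 2.86 ± 0.83), and Selplg, the P-selectin ligand (1.85 ± 0.44 and 2.65 ± 0.55). Fut7 was called higher at both ages (1.84 ± 0.59 and 2.00 ± 0.93). On the vessel side, the adhesion molecule Vcam1 was called higher (1.06 ± 0.42 and 2.98 ± 0.73). Icam1 was called lower at 12 weeks (-1.29 ± 0.39) and was not called at 20 weeks (0.62 ± 0.44). Chst4, which sulfates L-selectin ligands in high endothelial venules, was not called at any age and lay between -0.17 and 0.17 in all mice. Its signal was dim. It cleared background on 5 of 6 NOD and 1 of 6 pool arrays at 10 days, and on 0 and 1 at 4 weeks. The offset compresses such ratios, so values near 0 do not show equal levels. None of 8 general endothelial genes was called at 12 or 20 weeks, and 2 were called lower at 10 days. The list median was 0.25 at 12 weeks and 0.62 at 20 weeks.

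**Figure D4:**
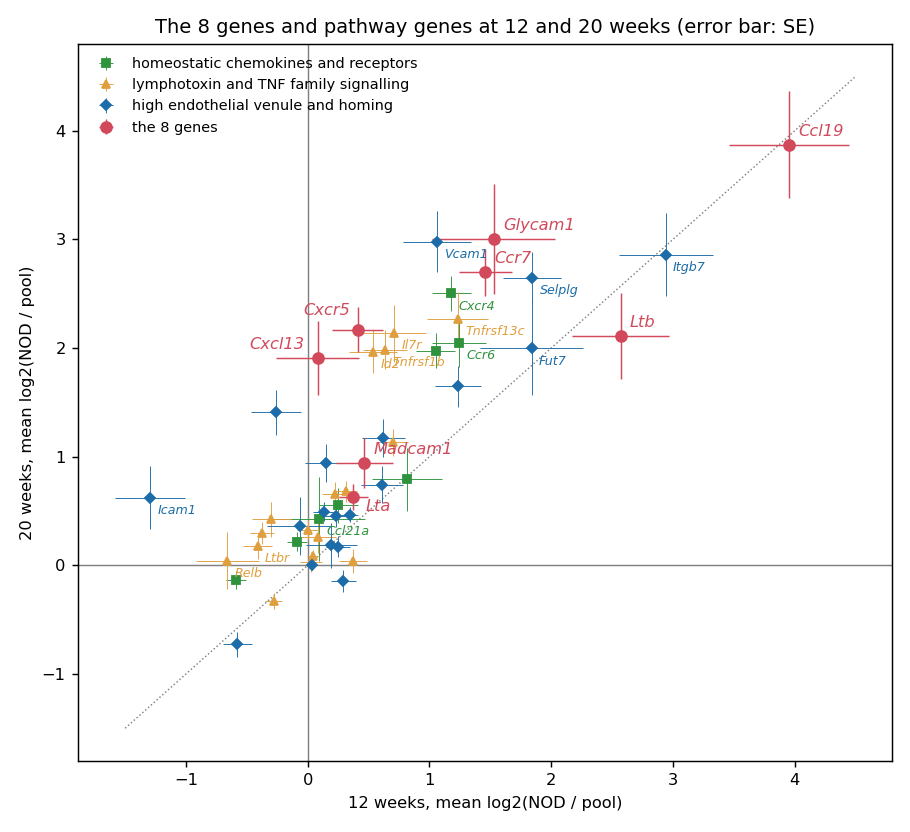
Mean log2 ratio at 20 weeks (y axis) against that at 12 weeks (x axis) for the 8 genes and for the genes of 3 pathway lists, with standard errors of the fit as bars; the dotted line marks equal ratios. Ccl19 and Ltb lie near or below the line, Cxcl13, Cxcr5, Ccr7, Vcam1 and Cxcr4 lie above it, and Relb and Ltbr lie near 0 on the vertical axis.

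Lists of cell type markers were called in part at the same ages, to be read beside 3.51% of all tested genes called at 12 weeks and 5.1% at 20 weeks. Of 12 T cell genes 6 were called higher than the pool at 12 weeks and 8 at 20 weeks. Cd5 (2.90 ± 0.45) was highest at 12 weeks and Cd3d (3.36 ± 0.64) at 20 weeks. Of 11 B cell genes 7 and 8 were called higher, led by Ighm (2.67 ± 0.59 and 2.41 ± 1.08). Of 8 dendritic cell and macrophage genes 3 and 5 were called higher, among them Itgax (1.79 ± 0.35 and 2.00 ± 0.59) and, at 20 weeks, Cd83 (2.36 ± 0.62). Of 8 genes of follicular dendritic cells and reticular stroma 2 were called higher at 12 weeks (Mfge8 1.62 ± 0.46, Pdgfrb 1.42 ± 0.28) and 1 at 20 weeks (Mfge8 1.79 ± 0.72). The other 6 and 7 were not called, and Mfge8 is also made by macrophages. Some uncalled genes were dim. Cr2, Pdpn and Tnfsf11 cleared background on 0 of 6 arrays in either channel at 4 weeks. At 12 weeks Tnfsf11 did so on 4 of 6 NOD and 0 of 6 pool arrays. For such genes the lack of a call does not show equal levels. The B cell list mean per mouse ran from 0.79 to 2.03 at 12 weeks, where Cxcl13 and Cxcr5 were not called, and from 0.37 to 2.20 at 20 weeks. The part of these cells in the 8 ratios was not tested.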

How the data were processed

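Scanner intensities of 24 two-colour arrays (design 014868) were deposited by the authors as Feature Extraction 10.7.3.1 output with mean signal, background and flags, per the file headers. The scanner's log10 ratio, per the file headers, and the authors' deposited log2 ratios (22122 entries, array medians -0.18 to 0.086, r of at least 0.9998 with the scanner ratio turned to log2) served for checks; how the authors chose its entries is not given in the sources used here. All computing was done in R 4.3.3, with limma 3.58.1 for the models and statmod 1.5.0 for the slide correlation. Steps were normexp with offset 50, loess within arrays, control spots at weight 0, flagged spots missing, spots averaged. A probe was kept when 6 or more arrays had it well above background in either channel (25910 of 41174), and the brightest probe stood for a gene. Names came from RefSeq accessions (27050), current (4154) or older symbols (589) or the files alone (9381). Probe coordinates were copied from the files, whose build is mm9.

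The limma fit gave each age its own mean and used all 24 arrays. Separate channels were scaled by Aquantile after loess. The 8 genes, the lists and the tests were chosen with earlier results of these data known. Named were the 8 genes, up to 4 called genes per list and direction at 12 and 20 weeks, and the 3 tested genes (with a gene name and no missing ratio) most like each member called at 20 weeks. A few others were named after their values were seen, and are given with their values. p-values measure the spread among the single NOD mice only. On simulated ratios with 200 changed genes of 18027 at 20 weeks, 99% of changes of 1.5 and 100% of changes of 2.5 (log2) were called, with 0 false calls. The simulated noise was normal and independent between genes, with the same SD for a gene at every age. It leaves out variation shared by genes, outlying mice, dye bias and the use of a single pool per age, so error rates in the real data are not known from it. The number of arrays limits the precision. Alternatives were median centring, the scanner's processed signals, no background subtraction, the deposited table, other filters, flagged spots kept, array weights, blocks by slide or replicate number, quantile scaling of the channels, and leaving out arrays.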

Additional observations from a re-analysis of the deposited data

Results flagged for a closer look

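In 5 of 36 groups of 6 ratios (9 probes at 4 ages), 1 mouse lay farther from the rest than Dixon's 95% criterion allows, where chance alone flags about 5% of groups. At 4 weeks this was mouse 5 for Cxcl13 (2.28, others -0.20 to -0.015), Glycam1 (-1.60, others -3.88 to -3.15) and Lta (0.13, others -0.13 to -0.053). At 12 weeks it was mouse 4 for Madcam1 (1.02, others 0.24 to 0.47). At 20 weeks it was mouse 5 for Glycam1 (0.36, others 2.89 to 3.97).

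By limma's moderated F test the ratio was not equal at the 4 ages for Ccr7 (adjusted p = 9.1e-08), Ccl19 (1.16e-06), Cxcr5 (1.17e-06), Glycam1 (1.35e-06), Ltb (0.00013), Cxcl13 (0.000141), Lta (0.00105) and Madcam1 (0.0369).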

How the results depend on the processing

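Directions at 12 and 20 weeks were kept by all members called there under every alternative run. The count of members called at 12 and at 20 weeks stayed within 1.5 times (3 to 6 and 6 to 8). Among member results called in the main fit, the only reversal was Ccr7 from 12 to 20 weeks under median centring (-0.20). Some results that were not called also changed sign under median centring. Examples are Glycam1 from 12 to 20 weeks (1.48 to -0.10) and Cxcl13 from 4 to 12 weeks (-0.23 to 0.67). In the order 10 days, 4, 12 and 20 weeks, then 4 weeks minus 10 days, 12 minus 4, 20 minus 12 and 20 weeks minus 10 days, the numbers of all genes called were 719, 504, 635, 922, 1628, 1094, 436 and 2266. Under median centring they were 2755, 780, 4290, 1824, 5905, 7103, 7665 and 7069. With the scanner's processed signals they were 2904, 2122, 3251, 3001, 4547, 4354, 2548 and 5694, and with the deposited values 2437, 1550, 2648, 2344, 3761, 3539, 1990 and 4683. For 20 minus 4 weeks 870 became 2292, 1726 and, without the 2 dimmest NOD samples, 1530. The share of calls that were higher at the 4 ages was 40.6%, 68.5%, 59.5% and 75.8%. It was 98.1%, 17.3%, 99.3% and 24.8% under median centring, which moved the median gene by 0.38, -0.15, 0.50 and -0.21, and 55.4%, 57.3%, 64.3% and 49.6% with the scanner's signals. Members called became 2 at 10 days, 2 at 4 weeks and 7 for 12 minus 4 weeks with the scanner's signals and the deposited values. There Lta and Madcam1 were called higher at 12 and 20 weeks, Lta lower at 10 days (-1.10 and -1.08) and Cxcr5 lower at 4 weeks (-1.84). For 4 weeks minus 10 days 1 member was called under median centring and with slide as a fixed block, and with that block 1 member and 194 genes were called for 20 minus 12 weeks. The causes were not tested. Leaving out single mice gave 0 to 2 members called at 10 days (0 without mouse 4 or 6, 2 without mouse 5) and 1 to 2 for 4 weeks minus 10 days (1 without 10 day mouse 6 or 4 week mouse 5). Without the 10 day mice, chosen after seeing the data, 10 pairs passed. Replicate numbers did not pair the mice (median correlation of same-numbered deviations -0.10, 11 of 36 over 0.1), and with the replicate block 4 members were called at 12 weeks and 6 at 20 weeks, as without it. Random slide blocks had a consensus correlation of -0.092.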
